A study of Mus musculus with 8 samples.

Results

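The angiopoietin, Tie and VE-PTP axis was followed here through its 5 core genes, the ligands Angpt1 and Angpt2, the receptors Tek (Tie2) and Tie1, and Ptprb, which encodes the receptor phosphatase VE-PTP. The members were all probes whose RefSeq accession on the array maps to 1 of these genes, which gave 6 of the 39429 probes on the array, 2 of them for Ptprb. In genes, these are 5 of the 20832 genes that could be named on the array. All 6 passed the filter on dim probes. RNA came from microvessel-enriched preparations of mouse forebrain (particles under 70 µm) taken from pups of 5 days (P5) and 10 days (P10) and from adults. The labels used here state no strain, genotype or treatment, and give no age in days for the adults. Each of 8 arrays compared total RNA of a pair of ages, 1 in Cy5 and 1 in Cy3. A replicate was a set of 4 arrays, carrying P5 with adult, P10 with adult, the latter pair again with exchanged dyes, and P5 with P10. There were 2 replicates, and each was treated here as 1 slide. The labels do not say whether the replicates came from separate animals or pools, so the p-values reflect the spread of these preparations alone, and that spread may be technical.

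Angiopoietins are secreted ligands of the receptor tyrosine kinase Tie2 on endothelial cells. Angiopoietin-1, made largely by cells around the endothelium, activates Tie2 and is known for vessel stabilisation, whereas angiopoietin-2, made largely by endothelial cells, can act as a weaker agonist or an antagonist depending on context. Tie1 has no classical high-affinity angiopoietin of its own and modulates Tie2 in a complex with it, and VE-PTP removes phosphate from Tie2 and from proteins of the VE-cadherin junction.

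Promoters are shown for the receptor genes Tek and Tie1, the 2 of the 5 genes that are in the RefSeq promoter table used here (build GRCm38.p6). Each line gives the 250 bases before the gene's start, 5′ to 3′ on the gene's strand. Capitals mark the core of the motif bound by ETS factors, a family that includes the endothelial regulator Erg, searched as GGAA on either strand (GGAA or TTCC).
Tek, chr4:94739039-94739288, plus strand: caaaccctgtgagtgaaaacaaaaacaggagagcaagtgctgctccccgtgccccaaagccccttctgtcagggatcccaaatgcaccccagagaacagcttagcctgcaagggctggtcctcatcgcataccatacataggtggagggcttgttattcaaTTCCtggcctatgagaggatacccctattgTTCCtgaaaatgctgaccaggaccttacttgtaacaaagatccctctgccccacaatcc
Tie1, chr4:118489850-118490099, minus strand: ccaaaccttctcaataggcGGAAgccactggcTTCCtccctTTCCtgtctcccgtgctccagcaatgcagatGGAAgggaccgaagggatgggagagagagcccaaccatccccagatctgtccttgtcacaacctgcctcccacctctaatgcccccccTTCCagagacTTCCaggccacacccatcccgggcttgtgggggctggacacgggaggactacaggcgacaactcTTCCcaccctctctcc
The core occurred 2 times before Tek and 7 times before Tie1. Among 32851 mouse promoters of this length, 93.4% held at least 1 copy, 76.8% held as many as Tek or more and 3.82% held as many as Tie1 or more. The GATA core (GATA or TATC) occurred 1 time before Tek and 0 times before Tie1, and 53.6% of all promoters held it. These matches describe the sequence only.

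All values of the members were measured above background. The 6 probes gave 96 channel values, and the scanner software called 96 of them well above background, 0 saturated and 0 outliers. Levels below are log2 intensities after normalization, averaged per age and replicate, and each probe has its own scale. Unlike the ratios, levels and channel ranges are not corrected for a probe's dye effect, and P5 RNA was always in Cy5. Log2 ratios come from a fit of the 4 ratios of each slide with a term for dye, followed by limma over 27109 probes, and are given with their SE (n = 2 replicates). A probe was called at an adjusted p under 0.05 (limma, Benjamini-Hochberg over all 27109 probes). The comparisons of P5 and P10 with adult share the adult samples, and no overlap between them is counted as a result.

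At P5 every member was lower than in the adult and lower than at P10. In P5 against adult, 6 of 6 member probes were called lower, against 24% of all tested probes called lower, 28.1% called higher and 52.1% called in either direction. In P5 against P10, 6 of 6 were again called lower, against 18.7% of all probes called lower, 21.4% higher and 40.1% in either direction. In P10 against adult, 3 of 6 were called, Angpt1 higher and both Ptprb probes lower, against 17.2% of all probes in either direction, 8.14% higher and 9.04% lower. With the background model fitted on all spots, including 4 and 7 spots of faulty recorded background on 2 arrays, 0 of 6 were called in P5 against P10 (adjusted p from 0.0602 to 0.0949 in limma) and 0 of 6 in P10 against adult, with the same directions. The plot of members over age shows a lower start for every member and different positions relative to adult at P10.

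**Figure D1:**
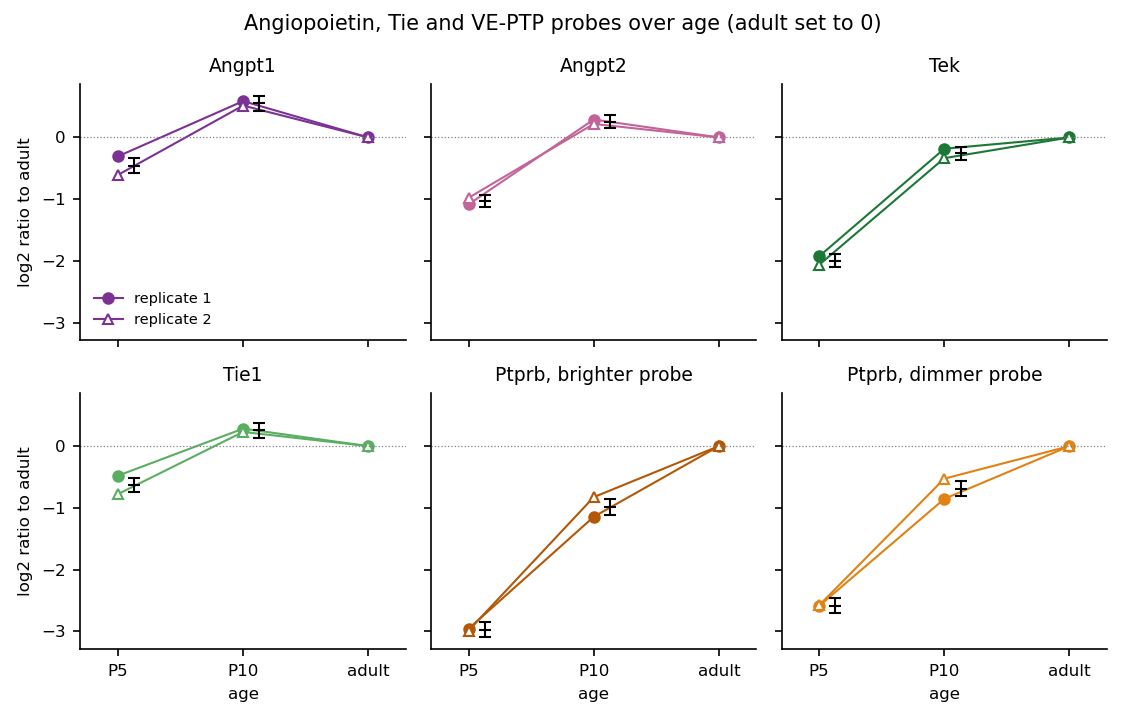
Log2 ratio to adult (vertical axis) at P5, P10 and adult (horizontal axis, adult set to 0) for each probe. Filled circles are replicate 1, open triangles replicate 2, and black bars the fitted mean ± SE. Angpt1, Angpt2 and Tie1 lie above 0 at P10 in both replicates, Tek just below it and both Ptprb probes lower still.

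Angpt1 had its highest level at P10. Its log2 intensity was 8.71 and 8.54 at P5, 9.50 and 9.67 at P10, and 8.88 and 9.12 in the adult, for replicates 1 and 2. Over single channels, P10 (9.48 to 9.79) lay above both other ages, while P5 (8.46 to 8.76) and adult (8.72 to 9.16) overlapped at their edge. Angpt1 was 2.01-fold lower at P5 than at P10 (log2 ratio -1.01 ± 0.12, adjusted p = 0.00661 in limma, replicates -0.89 and -1.12). It was 1.47-fold higher at P10 than in the adult (0.55 ± 0.12, adjusted p = 0.0369, replicates 0.59 and 0.52) and was at 72.9% of the adult level at P5 (-0.46 ± 0.12, adjusted p = 0.0262, replicates -0.31 and -0.61). Neither call against adult was made without the replicate block. The call at P10 was kept in 8 of 13 alternative analyses (adjusted p from 0.000459 to 0.225) and the call at P5 in 9 of 13 (0.0115 to 0.137). The P5 value ranged from -0.83 with median centring to -0.29 without the dye-exchanged arrays, where no dye term was fitted.

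Angpt2 was halved at P5 and close to its adult level at P10. Its log2 intensity was 9.30 and 9.41 at P5, 10.64 and 10.67 at P10, and 10.33 and 10.45 in the adult. No P5 channel (highest 9.41) reached a channel of another age (lowest 10.20), and P10 and adult channels were barely separated (lowest 10.53 against highest 10.52). The P5 level was 48.95% of adult (log2 ratio -1.03 ± 0.10, adjusted p = 0.00195 in limma, replicates -1.08 and -0.98) and 41.03% of P10 (-1.29 ± 0.10, adjusted p = 0.00386, replicates -1.37 and -1.20). The P10 ratio to adult, 0.25 ± 0.10, was not called (adjusted p = 0.164, 95% interval -0.0059 to 0.52), although both replicates were positive at 0.29 and 0.22. With median centring in place of loess, the P5 ratio to adult was -1.57.

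The log2 ratios of the ligands were set against each other. The Angpt2 log2 ratio minus the Angpt1 log2 ratio was -0.78 in replicate 1 and -0.37 in replicate 2 for P5 against adult, and -0.30 in each replicate for P10 against adult. For P5 against P10 it was -0.48 and -0.07. Angpt2 thus lay below Angpt1 relative to adult in both replicates at both young ages, a difference that was not tested.

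Most of the difference of Tek between P5 and adult lay between P5 and P10. Its log2 intensity was 9.47 and 9.76 at P5, 11.06 and 11.60 at P10, and 11.19 and 11.998 in the adult. The replicates differed in level, and P10 channels (10.79 to 11.65) overlapped adult channels (10.98 to 12.09), whereas P5 channels (9.38 to 9.84) stood apart. The P5 level was 25.1% of adult, a 3.98-fold difference (log2 ratio -1.99 ± 0.10, adjusted p = 0.000531 in limma, replicates -1.92 and -2.06). Across alternatives this ratio ranged from -2.60 with median centring to -1.42 without the arrays that carry spots of faulty recorded background. The P5 level was 3.33-fold below P10 (-1.73 ± 0.10, adjusted p = 0.00351, replicates -1.74 and -1.73), and 79th lowest of the 27109 ratios in that comparison.

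The P10 ratio of Tek to adult was not called (-0.26 ± 0.10, adjusted p = 0.156, 95% interval -0.52 to -0.0007, replicates -0.18 and -0.34), and it was not called in any of 13 alternatives. Its direction is not settled, since it became 0.09 without the 2 arrays that carry spots of faulty recorded background. The arrays of replicate 1 disagreed on Tek. The P5/adult array gave -1.43, above the route through P10. The P5/P10 ratio plus the P10/adult ratio (P10 in Cy5), minus the P5/adult ratio, was -0.69 in replicate 1 and -0.05 in replicate 2. The SD of this quantity over all probes was 0.26 and 0.19. Each of these arrays carries the dye effect, so with full agreement the quantity would equal the probe's dye term. Dye is thus mixed into these values and their SD. The fitted dye terms of Tek were 0.16 and -0.14. In replicate 2 the P5/adult array gave -2.23. The Ptprb arrays disagreed too. The same quantity was -0.45 and -0.24 for the brighter probe, beside fitted dye terms of -0.13 and -0.03. For the dimmer probe it was 0.49 and -0.37, beside dye terms of -0.15 and -0.01. Disagreement between arrays of a replicate does not enter the SE, which rests on the replicate values and on the moderation by limma.

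Tie1 was lower at P5 than at both other ages. Its log2 intensity was 10.86 and 10.69 at P5, 11.78 and 11.86 at P10, and 11.47 and 11.68 in the adult. P5 channels (10.65 to 10.89) lay below all others, and P10 (11.41 to 12.01) and adult (11.42 to 11.76) overlapped. These levels and channels carry the dye effect described below. Tie1 was 1.85-fold lower at P5 than at P10 (log2 ratio -0.88 ± 0.12, adjusted p = 0.00843 in limma, replicates -0.76 and -1.01) and at 64.7% of adult at P5 (-0.63 ± 0.12, adjusted p = 0.0106, replicates -0.48 and -0.78). The P10 ratio to adult, 0.26 ± 0.12, was not called (adjusted p = 0.214, 95% interval -0.04 to 0.56, replicates 0.28 and 0.23).

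Tie1 was also the member most affected by dye. The P10/adult ratio was -0.01 and 0.08 with P10 in Cy5, and 0.56 and 0.45 with the dyes exchanged, and only 3.195% of all probes had a larger dye term. P5 RNA was never labelled with Cy3, so the P5 values rest on the dye term from the P10 and adult arrays. On the P5/adult arrays themselves Tie1 read -0.75 and -1.03. The P5 ratio to adult was -0.94 without the dye-exchanged arrays and -1.27 with median centring, and remained called in 13 of 13 alternatives. Without the dye-exchanged arrays no dye term was fitted, so the value of -0.94 still contains the dye effect.

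**Figure D2:**
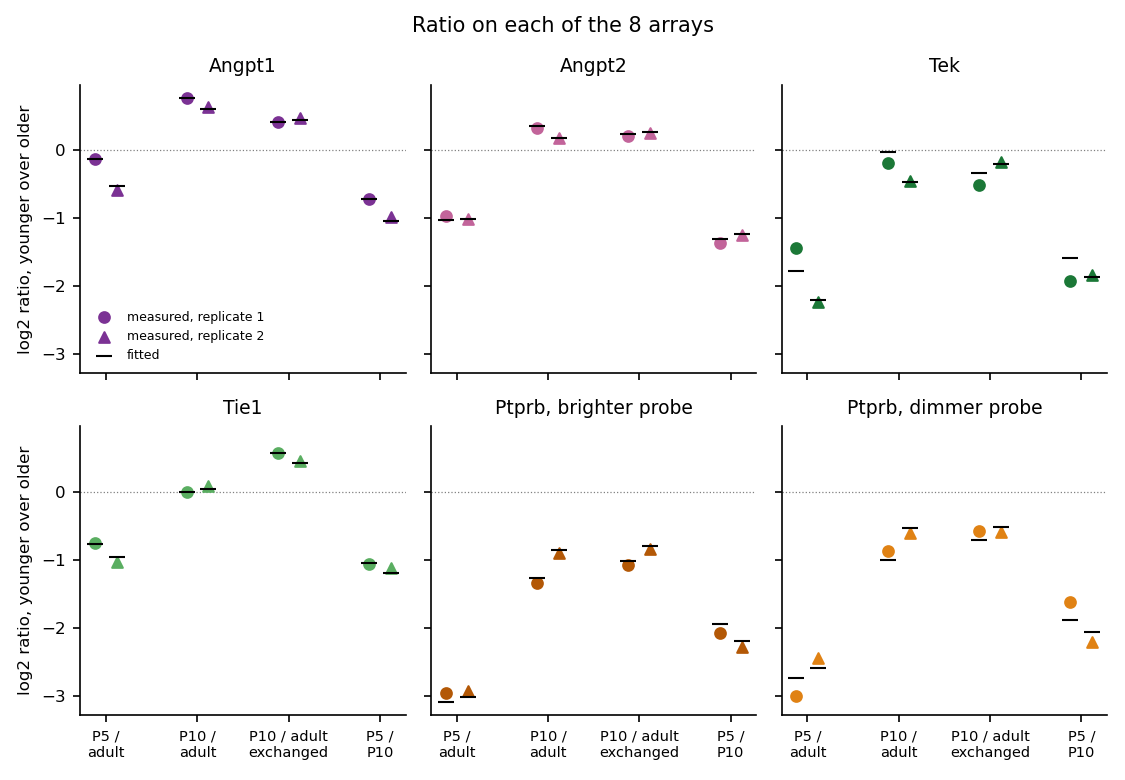
Log2 ratio of the younger over the older age (vertical axis) on each of the 8 arrays, grouped by pairing (horizontal axis), with circles for replicate 1, triangles for replicate 2 and black bars for the fitted value including the dye term. Tie1 separates by dye on the P10/adult arrays, and Tek and the dimmer Ptprb probe of replicate 1 lie off their fitted values on the P5/adult array.

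The receptors were set against each other in the same way. The Tek log2 ratio minus the Tie1 log2 ratio was -1.45 and -1.29 in the replicates for P5 against adult, -0.98 and -0.72 for P5 against P10, and -0.47 and -0.57 for P10 against adult. These gaps were not tested, and their spread between replicates was under 0.3 in each comparison.

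Ptprb had the lowest P5 ratios to adult of the axis and was the only member called below adult at both young ages. The brighter probe had a log2 intensity of 12.63 and 12.55 at P5, 14.53 and 14.74 at P10, and 15.62 and 15.55 in the adult, and the channels of the 3 ages did not overlap (12.52 to 12.64, 14.27 to 14.80 and 15.51 to 15.67). At P5 it was at 12.7% of adult, a 7.85-fold difference (log2 ratio -2.97 ± 0.13, adjusted p = 0.000465 in limma, replicates -2.96 and -2.99), which ranked 59th lowest of 27109. Across alternatives this P5 ratio ranged from -3.67 with median centring to -2.71 without the arrays that carry spots of faulty recorded background. At P10 the brighter probe was at 50.5% of adult (-0.99 ± 0.13, adjusted p = 0.011, replicates -1.14 and -0.83). The P5 level was 3.96-fold below P10 (-1.99 ± 0.13, adjusted p = 0.00351, replicates -1.81 and -2.16), the 35th lowest ratio.

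The second, dimmer Ptprb probe moved in the same direction with somewhat smaller ratios. Its log2 intensity was 9.69 and 9.43 at P5, 11.61 and 11.41 at P10, and 12.47 and 11.89 in the adult, with channels from 9.43 to 9.81, 11.21 to 11.77 and 11.82 to 12.55. The ratios were -2.58 ± 0.12 for P5 against adult (adjusted p = 0.000495 in limma, replicates -2.59 and -2.58), -0.69 ± 0.12 for P10 against adult (adjusted p = 0.0253, replicates -0.85 and -0.53) and -1.89 ± 0.12 for P5 against P10 (adjusted p = 0.00351, replicates -1.73 and -2.05). The brighter probe lay lower by 0.37 and 0.41 at P5, and by 0.29 and 0.30 at P10, relative to adult. The P10 call was kept in 11 of 13 alternatives for the brighter probe (adjusted p from 3.1e-05 to 0.0996) and in 7 of 12 for the dimmer one (0.000774 to 0.149), which was not called without the replicate block.

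Ptprb moved in 2 steps, from P5 to P10 and again from P10 to adult. On the log2 scale the brighter probe rose by 1.81 and 2.16 in the first step and by 1.14 and 0.83 in the second. Tek rose by 1.74 and 1.73 in the first, and its second step of 0.18 and 0.34 did not pass the test. For Angpt1 the second step was negative, at -0.59 and -0.52. Relative to Tek, the P5 ratio of Ptprb to adult was lower by 1.03 and 0.92, which was not tested.

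**Figure D3:**
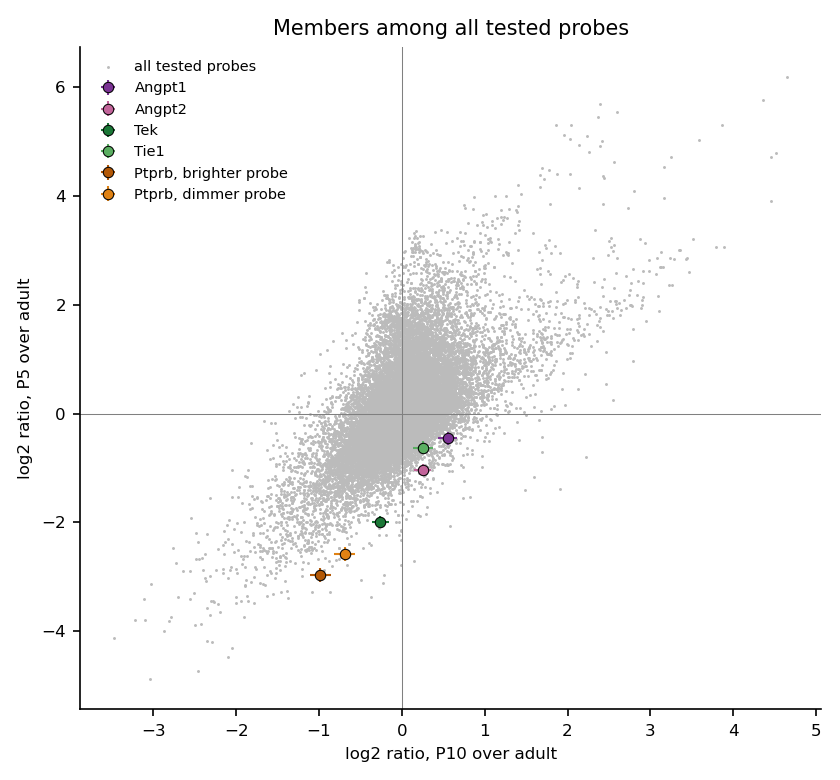
Log2 ratio of P5 over adult (vertical axis) against P10 over adult (horizontal axis) for the 27109 tested probes in grey, with the 6 member probes in colour and bars for ± SE. Both axes share the adult samples. The members run from Angpt1 on the lower right (0.55 at P10, -0.46 at P5) to the brighter Ptprb probe at -2.97 on the lower left.

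The tissue label was checked against endothelial markers, and all 20 of the list were measured. Each by its brightest probe, all 20 were called lower at P5 than in the adult (median log2 ratio -1.70, range -4.48 to -0.96). All 20 were also called lower at P5 than at P10 (median -1.25), while the median of all tested probes was 0.06 and 0.03. The other Kdr probe, not counted here, was at 0.03 and 0.07 in these comparisons. Cldn5, a tight junction protein, was at -1.69, Egfl7, a secreted endothelial protein, at -1.57 and Ly6c1, an endothelial surface protein, at -4.20 in P5 against adult. At P10, 11 of 20 were lower than adult and 0 higher (median -0.60). Fewer endothelial cells in the preparation and less RNA per cell cannot be told apart in these bulk samples, and the part of this shift in the members' ratios was not tested.

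Beside the endothelial list the members spread out on both sides. Minus the list's median in the same replicate, P5 against adult was -1.22 and -1.21 for the brighter Ptprb probe, -0.85 and -0.80 for the dimmer one and -0.19 and -0.28 for Tek. It was 0.65 and 0.80 for Angpt2, 1.26 and 1.01 for Tie1 and 1.43 and 1.18 for Angpt1. Of the endothelial markers, 20 of 20 had lower P5 ratios to adult than Tie1 and than Angpt1, 18 of 20 than Angpt2, 8 of 20 than Tek and 5 of 20 than Ptprb. At P10 against adult, 17 of 20 were lower than Tek and 6 of 20 lower than the brighter Ptprb probe. These offsets are descriptions without a test.

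Markers of other vessel and brain cells were counted in the same way. Of all tested probes, 24% were lower and 28.1% higher in P5 against adult, and 9.04% and 8.14% in P10 against adult. The counts of all marker lists are read against these shares. Among pericyte markers, of cells known to make Angpt1, 9 of 11 measured were lower at P5 than in the adult and 0 higher (median -1.35), with Vtn, vitronectin, at -2.42, Notch3, a mural cell receptor, at -1.28 and Higd1b at -1.96. At P10, 3 of 11 were lower than adult (median -0.25). The Angpt1 ratio to adult lay above the pericyte median by 0.81 and 0.89 at P5 and by 0.74 and 0.78 at P10. Smooth muscle markers gave 7 of 8 lower at P5 (median -2.07) and 1 of 8 at P10 (median -0.26, with -0.33 in replicate 1 and 0.04 in replicate 2).

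Tip cell markers, of the leading cells of vessel sprouts that also make Angpt2, were mixed at P5 against adult, with 5 of 13 higher and 5 lower (median -0.11). At P10 against adult 6 of 13 were higher and 1 lower (median 0.55). Of the brightest, Mcam, an adhesion molecule, was at 1.43 at P5, while Unc5b, a guidance receptor, was at -1.44 and Pdgfb, the pericyte-recruiting growth factor, at -1.14. Angpt2 lay below the list's median by 0.996 and 0.867 at P5 and by 0.28 and 0.33 at P10.

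Red cell markers were higher at P5 than in the adult in 7 of 7 cases (median 4.92) and at P10 in 6 of 7 (median 2.23). Immature neuron markers were higher in 9 of 10 at P5 (median 2.25) and 7 of 10 at P10 (median 0.89), and oligodendrocyte markers were lower in 6 of 8 at each age (medians -2.12 and -1.30). Among fibroblast markers 4 of 6 were higher and 2 lower at P5 (median 1.096), and 4 of 6 were higher at P10 (median 1.31). Their part in the members' ratios was not tested.

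In the remaining marker lists, astrocyte genes gave 2 of 9 higher and 3 lower at P5 (median -0.24) and microglia genes 2 of 7 higher (median 0.59, with -0.04 in replicate 1 and 1.05 in replicate 2). Perivascular macrophage genes gave 1 of 3 higher (median 0.14), platelet genes 3 of 3 lower (median -0.60), mature neuron genes 4 of 7 lower (median -0.53) and oligodendrocyte precursor genes 5 of 5 higher (median 0.95). Over all tested probes 28.1% were higher and 24% lower, so the astrocyte counts and the count of higher microglia genes are close to those shares.

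**Figure D4:**
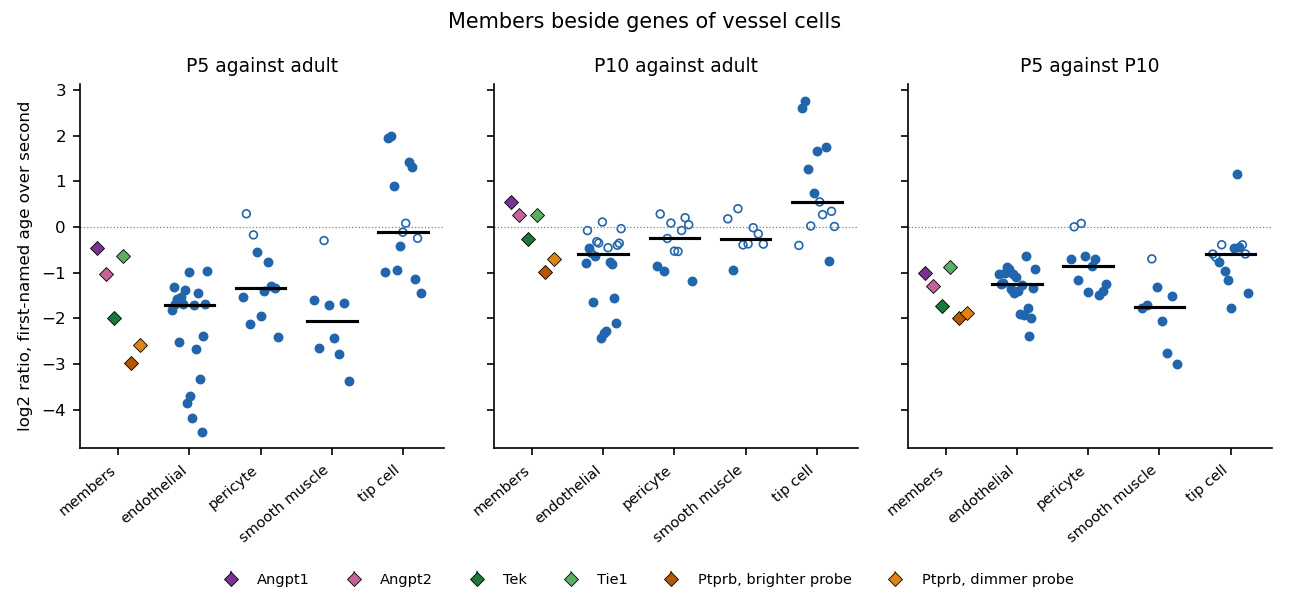
Log2 ratio of the first-named over the second-named age (vertical axis) for the members (diamonds, ± SE) and for the genes of 4 vessel cell lists (circles, filled where called, with a black bar at the list's median), in 1 panel per comparison. At P5 against adult the endothelial median is -1.70 and the members lie between -2.97 and -0.46.

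The counts of the pathway lists are read against all tested probes, of which 24% were lower and 28.1% higher in P5 against adult (median 0.06), 18.7% and 21.4% in P5 against P10 (median 0.03), and 9.04% and 8.14% in P10 against adult (median 0.00). Among the genes that act downstream of Tie2, most that changed at P5 were lower. Of 26 adaptors, kinases and transcription factors, 16 were lower and 2 higher in P5 against adult (median -0.61). In P5 against P10, 11 were lower and 1 higher (median -0.32). In P10 against adult, 5 were lower and 1 higher (median -0.27), where 9.04% of all probes were lower and 8.14% higher. The lower calls at P10 thus lay above their share and the higher call below it, which was not tested. Klf2, a flow-induced endothelial transcription factor, had the lowest ratio of the list, at -3.35 ± 0.14 at P5 (adjusted p = 0.000465) and -1.63 ± 0.14 at P10 (adjusted p = 0.00444) relative to adult. Grb14, an adaptor of receptor tyrosine kinases, was at -1.99 ± 0.11 and -1.46 ± 0.11 (adjusted p = 0.000624 and 0.00335). Nck1, an adaptor to the cytoskeleton, was at -1.57 ± 0.10 at P5 (adjusted p = 0.00081) and -0.47 ± 0.10 at P10 (adjusted p = 0.0388). Grb7, another receptor adaptor, was at -1.46 ± 0.15 at P5 (adjusted p = 0.00214) and was not called at P10 (-0.49 ± 0.15, adjusted p = 0.0907).

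Most VE-PTP partners and substrates were lower at P5 than in the adult. Of 9 genes, 7 were lower in P5 against adult (median -0.99), 6 in P5 against P10 (median -0.76) and 2 in P10 against adult (median -0.15), with 0 higher in each. Calls over all probes were also fewer in P10 against adult. Cdh5, the VE-cadherin that VE-PTP binds, was at -1.32 ± 0.14 at P5 (adjusted p = 0.00219) and not called at P10 (-0.08 ± 0.14, adjusted p = 0.772, 95% interval -0.42 to 0.27). Ctnnb1, the beta-catenin of the same junction, was at -1.25 ± 0.10 at P5 (adjusted p = 0.00108) and -0.49 ± 0.10 at P10 (adjusted p = 0.0309). Fgd5, an endothelial exchange factor, was at -1.27 ± 0.10 and -0.47 ± 0.10 (adjusted p = 0.00105 and 0.0339). Kdr, the main VEGF receptor, was at -0.99 ± 0.10 at P5 (adjusted p = 0.00189) by its brighter probe and 0.03 by its other probe, so its probes disagree. Cdh5 and Kdr are also in the endothelial list.

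Among integrin chains reported to bind angiopoietins, Itga5 and Itgb1 were highest at P10. Of 5 chains, 0 were called in P5 against adult in limma (1 at an unadjusted p under 0.05), 2 were higher in P10 against adult and 2 lower in P5 against P10. Itga5, a chain of the fibronectin receptor, was at 1.28 ± 0.11 in P10 against adult (adjusted p = 0.00464) and -1.25 ± 0.11 in P5 against P10 (adjusted p = 0.0047). Itgb1, its partner chain, was at 0.74 ± 0.13 and -1.02 ± 0.13 by its brighter probe (adjusted p = 0.0219 and 0.00741). The other Itgb1 probe was at 0.425 and -0.81. At P5 neither Itga5 nor the brighter Itgb1 probe was called against adult, at 0.03 ± 0.11 and -0.28 ± 0.13 (95% intervals -0.26 to 0.33 and -0.60 to 0.04).

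The other receptor phosphatases were more often higher than lower at P5. Of 17 measured, 10 were higher and 4 lower in P5 against adult (median 0.64), 8 higher and 2 lower in P5 against P10, and 2 higher and 2 lower in P10 against adult. Ptprz1, expressed in glial precursors, was at 2.46 ± 0.10 (adjusted p = 0.00046), Ptpro at 2.20 ± 0.21 (adjusted p = 0.00189) and Ptprd, a neuronal synaptic phosphatase, at 1.68 ± 0.24 (adjusted p = 0.00504) in P5 against adult. The other Ptprd probe was at 0.98. Ptprr had the lowest ratio of the 17, at -3.16 ± 0.14 at P5 (adjusted p = 0.000465) and -1.90 ± 0.14 at P10 (adjusted p = 0.00309) relative to adult.

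Angiopoietin-like genes and Svep1, the gene of a Tie1 ligand, gave 2 of 5 measured higher and 1 lower in P5 against adult. Angptl4, a secreted inhibitor of lipoprotein lipase, was at 1.81 ± 0.20 at P5 (adjusted p = 0.0026) and 2.14 ± 0.20 at P10 (adjusted p = 0.00517). Of 11 VEGF and hypoxia genes that act beside the axis, 8 were lower and 2 higher in P5 against adult (median -0.72). Flt1, the VEGF receptor that acts as a decoy, was at -3.86 ± 0.11 and Vegfc, a ligand of lymphatic and endothelial VEGF receptors, at -2.06 ± 0.16, while Vegfa, the main VEGF, was at 1.496 ± 0.21 (adjusted p = 0.00046, 0.00111 and 0.00473). The other Vegfa probe was at 0.51. Flt1 is also in the endothelial list. Epas1, the hypoxia-inducible factor of endothelium, was at -3.28 ± 0.11 by its brightest probe (adjusted p = 0.00046), and its 3 probes ran from -3.28 to 1.05.

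**Figure D5:**
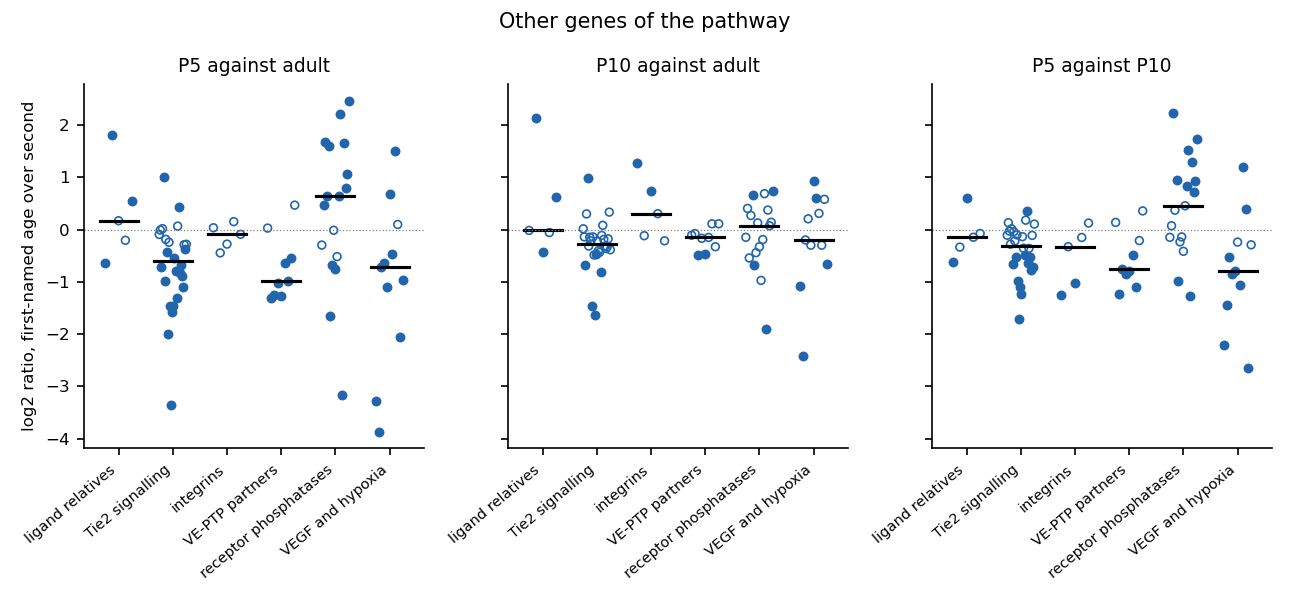
Log2 ratio of the first-named over the second-named age (vertical axis) for the genes of 6 pathway lists (1 probe per gene, filled where called, with a black bar at the list's median), in 1 panel per comparison. In P5 against adult, VE-PTP partners have a median of -0.99 and receptor phosphatases of 0.64.

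For each member, the 3 genes of nearest course were found among 15591 genes by the root mean square difference over 4 values, the P5 and P10 log2 ratios to adult in both replicates. Angpt1 was nearest to Ddr2, a collagen receptor (0.066), then Zfp385c (0.0824) and Ccn4 (0.101). Angpt2 was nearest to Rasl11a (0.0726), Tmem51 (0.0813) and Dap (0.0846). Tek was nearest to Gper1, a membrane oestrogen receptor (0.0497), followed at a distance by Lsr, a protein of tricellular junctions (0.174), and Ano1, a chloride channel (0.176).

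Tie1 was nearest to Septin8 (0.0578), Lmna, the nuclear lamin gene (0.0747), and Slc16a12 (0.0766). Ptprb was nearest to Cavin2, a caveolar coat protein (0.205), Hrct1 (0.211) and Epas1 (0.229). The courses differ in how common they were, with 555 genes within 0.25 of Tie1, 204 of Angpt1, 122 of Angpt2, 27 of Tek and 6 of Ptprb. These distances are descriptions over 4 values that share the adult samples.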

How the data were processed

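Each array has 1 deposited file from Agilent Feature Extraction. Its median spot and local background signals are linear intensity values per the file headers, and the authors' deposited log ratio is log10 of the Cy5 over Cy3 processed signal. The headers give version 10.5.1.1 and the submitters' processing notes 12.6. The labels' protocols give 100 ng of labelled total RNA per sample. The age in each channel, the dye and the replicate were taken from the labels.

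Median signals were background-corrected (normexp, offset 50). On 2 arrays, 4 and 7 spots with a signal more than 100 below a faulty recorded background took the array's median background and were then left out. Loess within each array used a span of 0.3, with control and outlier spots given no weight, and spots of 1 probe were averaged. Probes named through RefSeq (assembly GRCm38.p6, names only) numbered 27427, and 12002 had no symbol. A probe was kept if all channels of 1 age or more were well above background (27190, of which 81 could not be fitted). Of 43020 non-control spots, 65.2% to 73.3% passed that flag per channel, and the number of arrays limits the precision.

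Per slide, the 4 ratios were fitted with both age differences and a dye term, and limma 3.58.1 (R 4.3.3) then fitted age and replicate (2 residual and 3.05 prior degrees of freedom). Slide and replicate were treated as one. Each replicate carries the 3 ages, so the replicate block follows the pairing of the arrays, and values per replicate are those within 1 set of 4 arrays. The fit was tested on simulated data with few changed probes, where it returned ratios without bias and called most of the largest changes, and none of the changed probes in the comparisons that held only smaller changes. Genes in the lists are represented by their brightest probe. Named pathway genes are those called with an absolute log2 ratio of at least 1, at most 4 per list by size, and markers are named by intensity, at most 3 per list. The members, lists and rules were chosen with earlier results of these data known. Alternatives covered background, normalization, filters, the replicate block, dye, arrays and replicates.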

Additional observations from a re-analysis of the deposited data

Results flagged for a closer look

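For every member probe, the change relative to adult differed between P5 and P10 by the direct test of P5 against P10 in limma, with both replicates in the same direction. The difference was -1.99 for the brighter and -1.89 for the dimmer Ptprb probe, -1.73 for Tek, -1.29 for Angpt2, -1.01 for Angpt1 and -0.88 for Tie1 on the log2 scale. In the same comparison 40.1% of all tested probes were called.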

How the results depend on the processing

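The probes' 3 ratios were recomputed under 15 alternatives, 2 of which leave out a replicate and give values with no test. Of 267 values, 241 stayed on their side of the threshold (or, without a replicate, near the reported value), 22 lost the call, 4 gained one and 0 called values reversed. The uncalled P10 ratio of Tek to adult turned to 0.09 without the arrays with faulty background spots. The lower P5 level relative to adult was called in 13 of 13 alternatives for Angpt2, Tek, Tie1 and the brighter Ptprb probe, and in 12 of 12 for the dimmer one. With normexp fitted on all spots, faulty ones included, no member probe was called in P10 against adult or P5 against P10 (0 and 0, against 3 and 6). Values there were -0.42, 0.40 and -0.81 for Angpt1 (P5 against adult, P10 against adult, P5 against P10), and in P5 against P10 -1.07 for Angpt2, -1.45 for Tek and -0.85 for Tie1. Those of Ptprb were -0.86 and -1.96 (P10 against adult, P5 against P10) for the brighter and -0.84 and -1.56 for the dimmer probe. That setting called 6426, 273 and 33 of all probes in P5 against adult, P10 against adult and P5 against P10, in place of 14118, 4657 and 10872. In P10 against adult the member count was 1 with the deposited log ratio (Angpt1 0.61 and the dimmer Ptprb probe -0.68 lost the call) and 0 with median centring (Angpt1 0.55, Ptprb -0.79 and -0.66). With no replicate block it was 1 (Angpt1 0.58, dimmer Ptprb probe -0.67), and Angpt1 lost its P5 call against adult at -0.37. Without the arrays with faulty background spots it was 1 (Angpt1 0.56, dimmer Ptprb probe -0.98, and Angpt1 at P5 -0.49). It was 5 with 6 ratios fitted directly, where Angpt2 (0.27) and Tie1 (0.25) became called, and 5 with 8 ratios and the slide as a random block (0.25 and 0.26). Both treat arrays as replicates. Without the dye-exchanged arrays, where no dye term was fitted, Angpt1 lost its P5 call at -0.29. Counts over all probes moved by more than 1.5 times to 1471 with median centring, 9345 with 6 ratios, 12327 with the random block, 2220 with no replicate block and 2259 without the faulty arrays in P10 against adult. In P5 against P10 they moved to 16606, 6486 and 6724 with 6 ratios, no replicate block and no faulty arrays. Median centring moved the all-probe median of P5 against P10 from 0.03 to -0.12, and the share of higher among called probes from 53.4% to 39.2%. Leaving out a replicate gave P5 against adult ratios of -0.61 to -0.31 for Angpt1 and -0.78 to -0.48 for Tie1. Apart from the smaller sets of arrays, the causes were not tested.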
